A study of Mus musculus with 5 samples.

Results

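The comparison set mouse fibroblasts that had been steered toward a Leydig cell fate against Leydig cells taken from the adult testis. It used 4 of the 5 single-colour arrays of the series, 2 labelled induced Leydig-like cells (iLC) and 2 labelled Leydig cells, and all 19084 genes that a probe of the array named. The iLC were fibroblasts from embryos of 13.5 days, exposed to lentivirus carrying Dmrt1, Gata4 and Nr5a1 for 12 hours and then moved to a medium with 50 ng/ml of IGF plus 10 ng/ml of PDGFAA. The Leydig cells were isolated from the testes of mice aged 56 days. The remaining array, of fibroblasts from embryos of the same age given a mock vector (MEF), had no replicate. Its values stand beside those of the comparison as the fibroblast level, with no test. The sources used here do not give the strain, the time the iLC spent in that medium, whether the MEF had it too, how many animals were pooled, or how pure the Leydig cells were. The question was what the induced cells kept of the fibroblast and what they lacked of the Leydig cell.

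Leydig cells lie between the seminiferous tubules and make testosterone under the control of luteinising hormone. Cholesterol enters the mitochondrion with the help of Star, Cyp11a1 cuts its side chain, and Hsd3b, Cyp17a1 and Hsd17b3 enzymes complete the androgen. Nr5a1 and Gata4 are transcription factors that drive these genes. Fibroblasts are cells of connective tissue that secrete and contract an extracellular matrix, and embryonic ones carry Hox genes that record their place along the body.

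A level below is a probe intensity on the deposited linear scale, read on iLC replicates 1 and 2 and then on Leydig replicates 1 and 2. A difference is iLC minus Leydig on the log2(intensity + 16) scale, with its standard error (SE) from limma. Levels are compared between arrays and never between genes, because probes differ in brightness. Array medians lay between 1111 and 1230. The correlation of log2 values over genes, which are no replicates of each other, was 0.978 for the iLC pair, 0.961 for the Leydig pair and 0.875 to 0.906 between the groups. With 2 arrays a group, and nothing saying that they came from separate cultures or animals, p-values measure only the spread between these arrays. The number of arrays limits the precision. Called means an adjusted p under 0.05 in limma over all 19084 genes. Separate means that both iLC arrays lay on one side of both Leydig arrays.

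The labels were first set against cell type markers. The Leydig arrays carried Cyp17a1, Hsd3b1 and Nr5a1, with Cyp17a1 at 40614 and 197728. Their readings of Cyp11a1 were 509.8 and 450.6, under their array medians, and Star read 1368 on Leydig replicate 1 against 19703 on replicate 2. No probe named Prlr, Hsd3b6, Lhcgr or Insl3, so several defining Leydig genes were not analysed here. The iLC arrays carried Star and Hsd3b1 and, as described below, many fibroblast markers. Summed over 31 germ cell and spermatid markers, intensity was 103956 and 110265 in the iLC pair, 180826 on Leydig replicate 1 and 1599910 on Leydig replicate 2. The spermatid genes Odf1 and Smcp, named after their values were seen, read 2692 and 1800 on Leydig replicate 1 and 356634 and 313236 on replicate 2. The 2 Leydig arrays therefore stand apart in germ cell transcripts. Their labels carry different short codes, as do those of the iLC pair, with no explanation, so whether each pair came from like preparations is not known, and the spread behind each p-value may include such a difference. Of the 31 markers 15 (48.4%) were called lower in iLC and 1 (3.23%) higher, against 5.69% and 5.74% of all genes. With Leydig replicate 2 left out 9 were lower and none higher, with Leydig replicate 1 left out 21 were lower and none higher, and with either iLC array left out 7 were lower and none higher. In bulk samples, fewer cells of a type and less RNA per cell cannot be told apart.

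Markers of other testicular cells differed too. Sertoli and granulosa markers summed to 130200 and 148218 in iLC against 497841 and 594915 in Leydig cells, and 5 of 23 were called lower in iLC and 2 higher, the 5 becoming 2, 4, 1 and 2 without iLC replicate 1, iLC replicate 2, Leydig replicate 1 and Leydig replicate 2. Aard, a Sertoli cell gene, read 6029 and 3587 against 50609 and 147767 (difference -4.21 ± 0.57, SE). Clu, also lower, read 45638 and 82916 against 332720 and 369002, most of the Leydig sums. The 2 higher ones were Inhbb (3.39) and Foxl2 (3.30, with 0.83 at its other probe). Clu and Foxl2 lost their calls with at least 1 array left out. Of the list 21.7% were lower and 8.70% higher, against 5.69% and 5.74% of all genes. Amh, of the same list, read 216.1 or less on these 4 arrays, at or under the 20th percentile of each. Sox9 read no more than 1120 on a Leydig array. These low readings do not tell how many Sertoli cells the samples held. Endothelial markers summed to 239114 and 205376 against 496425 and 276176, with Cd34 alone at 4709 and 2861 against 230267 and 46905. Of 21 markers 3 (14.3%) were called lower in iLC and 2 (9.52%) higher, against 5.69% and 5.74% of all genes. The lower ones were Cd34, Ramp2 and Cdh5, the endothelial cadherin (1216 and 1145 against 10224 and 6400). The higher ones were Flt1 (2.97) and Esam (1.53). All but Cdh5 lost their calls with at least 1 array left out. Macrophage and leukocyte markers summed to 92501 and 181076 against 222186 and 183030. Of these 27 markers 4 (14.8%) were called lower in iLC and 6 (22.2%) higher, against 5.69% and 5.74% of all genes. The macrophage gene Mpeg1 led the lower ones (1612 and 3004 against 131884 and 79840, and its other probe gave -1.48). With 1 array left out the list had 1 to 4 members called higher and 2 or 3 called lower. The higher ones included the complement genes C1qb and C1qc and the Fc receptor gene Fcgr3, which lost their calls without Leydig replicate 2. C1qb also lost its call without either iLC array, C1qc without iLC replicate 2 and Fcgr3 without Leydig replicate 1. The red cell gene Hbb-b1, one of the widest gaps below, read 178 and 177 in iLC against 20935 and 18462 in Leydig cells, while none of the 3 measured genes of the red cell marker list was called. The sum of myoid and vascular smooth muscle markers ran the other way, at 552242 and 494819 against 49823 and 65942. Most of it was Acta2, at 493313 and 439352 against 29989 and 46397, with 466436 on the MEF array. Of these 14 markers 5 (35.7%) were called higher in iLC and none lower, against 5.74% and 5.69% of all genes. The part of these cells in the results that follow was not tested.

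**Figure D1:**
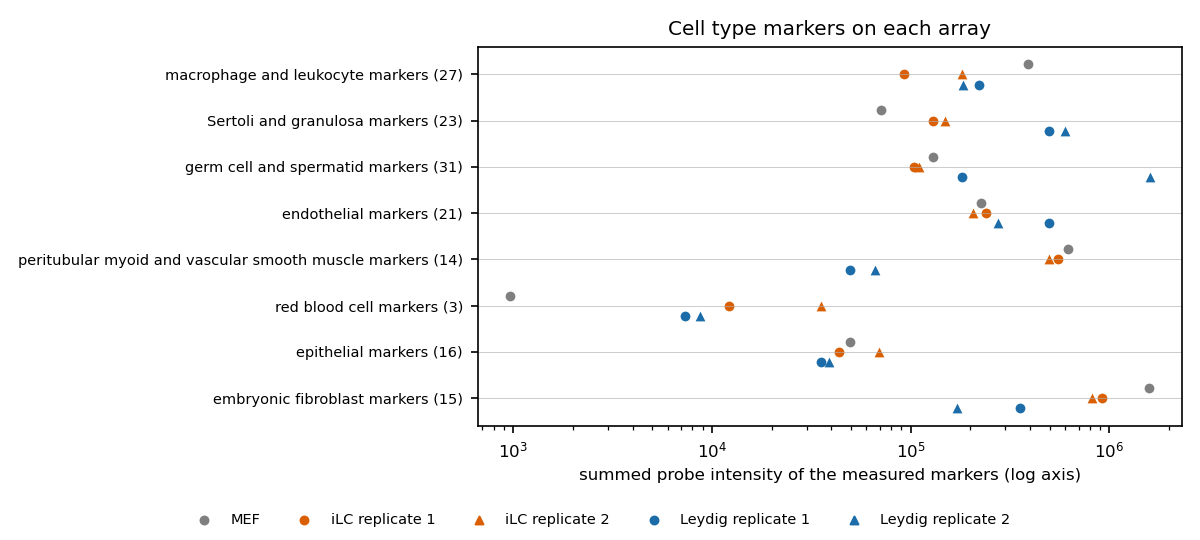
Summed probe intensity of the measured markers of each cell type (log axis; the number of markers in brackets), 1 point per array, for the MEF, iLC and Leydig arrays. Germ cell markers set Leydig replicate 2 (1599910) apart from the other 4 arrays. The myoid sum, most of it Acta2, and the embryonic fibroblast sum were higher on both iLC arrays than on both Leydig arrays.

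Of the 19084 genes, 1095 (5.74%) were called higher in iLC and 1086 (5.69%) lower. The groups were separate for 5513 genes higher in iLC (28.9%) and 5543 lower (29.0%), and overlapped for the other 8028. These shares of all genes are the background for the called and separate counts of every list. All 2181 called genes were separate. The gap between the nearest arrays of the 2 groups was at least 4 log2 units for 100 higher and 85 lower genes, and at least 6 for 19 and 11. With 1 array left out, which leaves a single residual degree of freedom, the calls fell to 562 higher and 415 lower without iLC replicate 1, 489 and 544 without iLC replicate 2, 506 and 761 without Leydig replicate 1, and 336 and 368 without Leydig replicate 2. A called gene named below kept its call under each of 16 alternative settings, these 4 included, unless a loss is given. The filter on dim genes drops Hoxb8, Hoxa11 and Hoxa9, which kept theirs under the other 15. A gene given as losing its call with 3 or more arrays left out may have lost it under another setting too. The median difference over all genes was -0.03, against which the list medians below can be read.

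**Figure D2:**
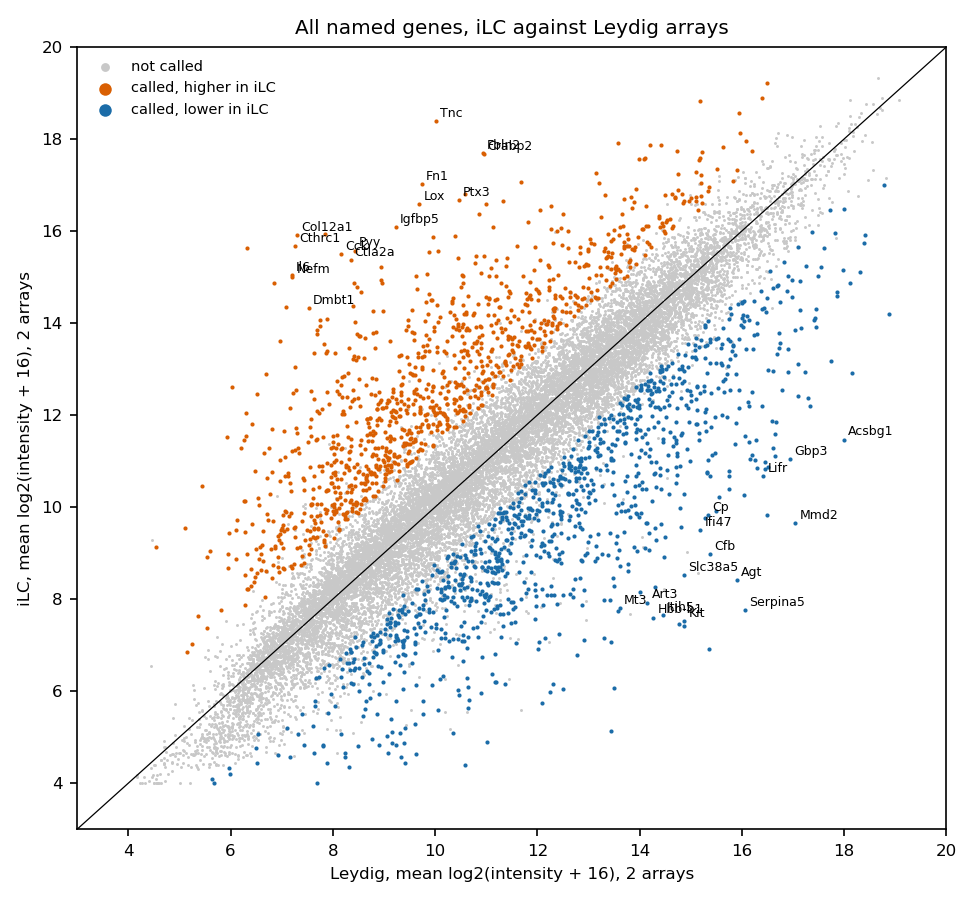
Mean log2(intensity + 16) of the 2 iLC arrays against that of the 2 Leydig arrays for the 19084 named genes, with called genes in colour. The 30 ranked genes of widest gap are named and the line of equality is drawn. Called genes lie on both sides in near equal number, 1095 above the line and 1086 below it.

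The single fibroblast array gave a way to sort the called genes, chosen after the values were seen. Of the 1095 genes higher in iLC, 732 (66.8%) had a MEF level on the iLC side of the midpoint between the iLC and Leydig means, and for 363 the MEF level lay on the Leydig side. Of the 1086 lower genes, 845 (77.8%) had a MEF level on the iLC side and 241 on the Leydig side. These counts describe 1 MEF array and carry no test. They serve below as the background for the same count in each list. A MEF level on the iLC side can still lie far above or below both iLC levels.

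The widest gap among the ranked genes higher in iLC was that of Cthrc1. Cthrc1, a secreted protein of collagen-producing cells, read 53237 and 50748 in iLC against 159 and 117 in Leydig cells (difference 8.41 ± 0.32, SE, adjusted p = 0.000908). Col12a1, a fibril-associated collagen, read 85054 and 44719 against 177 and 113. Tnc, the matrix protein tenascin C, read 379573 and 308874 against 758 and 1376. Both iLC values stood far above both Leydig values in each case, and the MEF array read 13059 for Cthrc1, 101771 for Col12a1 and 387761 for Tnc. Leydig readings of Cthrc1 and Col12a1 lay under those arrays' 20th percentiles (214 and 218). The size and rank of a gap with readings this low depend on the added 16 and on each array's low end. The Cthrc1 difference ran from 7.05 to 8.75 over the alternative settings.

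Fn1 (fibronectin) read 169821 and 104543 in iLC against 1039 and 673 in Leydig cells and 218059 on the MEF array. Fbln2, a fibulin, read 229109 and 197618 against 1849 and 2046, with 218983 on the MEF array. Lox, the enzyme that cross-links collagen and elastin, read 104922 and 93231 against 1117 and 589, with 125312 on the MEF array. At these probes the MEF level was close to or above both iLC levels. The other Lox probe read 47421 and 34162 against 198 and 120, with 18368 on the MEF array, below both iLC arrays. Igfbp5, a binding protein of insulin-like growth factors, Ptx3, a pentraxin, and Ctla2a, a protease inhibitor gene, differed by 6.86, 6.21 and 7.02. Crabp2, which carries retinoic acid in the cytoplasm, read 281173 and 153442 against 2137 and 1796, with 30114 on the MEF array, below both iLC arrays.

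Of the 15 ranked genes of widest gap on the higher side, 11 had a MEF level on the iLC side of the midpoint. The other 4 were Il6, Nefm, Pyy and Dmbt1. Il6, an inflammatory cytokine, read 30289 and 37346 against 145 and 118, with 743 on the MEF array. Nefm, a neurofilament subunit, read 20955 and 51053 against 116 and 150, with 733 on the MEF array. Pyy, a gut peptide hormone, read 53158 and 44677 against 340 and 319, with 654 on the MEF array. Dmbt1, a scavenger protein of epithelia, read 12714 and 32837 against 171 and 166, with 247 on the MEF array. These 4 genes were high on both iLC arrays and on no other array. Cck, another peptide hormone gene, read 40615 and 52137 against 196 and 372, with an intermediate 6346 on the MEF array.

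**Figure D3:**
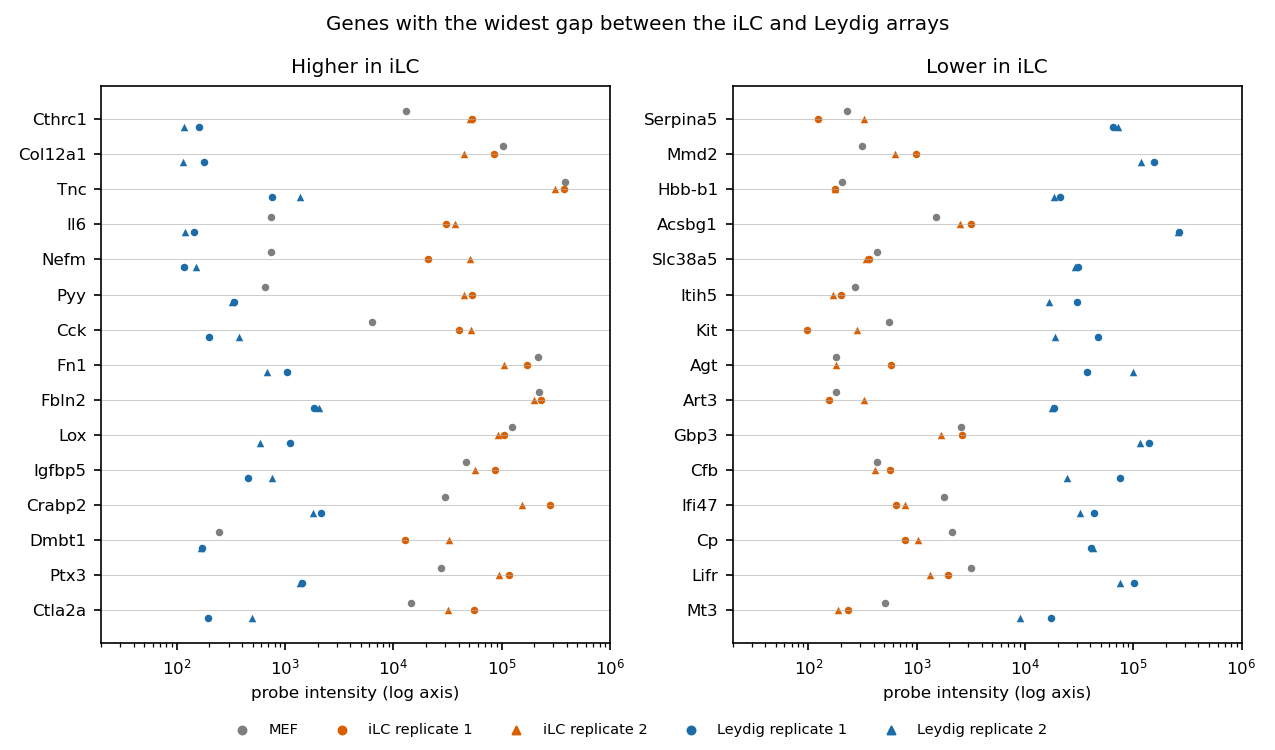
Probe intensity (log axis) on each of the 5 arrays for the 15 ranked genes of widest gap in each direction, ordered by the gap. Grey is MEF, orange iLC and blue Leydig. The MEF point lies on the iLC side of the midpoint between the groups for 11 of 15 genes on the higher side and for all 15 on the lower side.

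Of 44 measured fibroblast matrix and matricellular genes, 23 (52.3%) were called higher in iLC and 2 (4.55%) lower, against 5.74% and 5.69% of all genes. Separate in those directions were 32 and 8, against 28.9% and 29.0% of all genes, and the median difference was 1.61. Of the 23, 21 had a MEF level on the iLC side. Tnc, Fn1, Lox and Fbln2, given above, were among them. Postn (periostin) read 50186 and 28536 against 452 and 499, with 239164 on the MEF array, and Thbs2 (thrombospondin 2) read 66224 and 54794 against 1949 and 492, with 36514 there. The 2 lower members were Plod2, a lysyl hydroxylase (-2.06), and Eln, elastin (-1.75), which lost their calls without any 1 array. Without iLC replicate 1, iLC replicate 2, Leydig replicate 1 and Leydig replicate 2 the higher count was 14, 16, 18 and 14.

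Not all of the matrix set the groups apart. Vim, the intermediate filament of mesenchymal cells, read 236317 and 189589 against 170193 and 180020 and did not pass. Sparc and Dcn, both abundant matrix proteins, had differences of 0.20 and -0.51 that did not pass. The Col1a1 probe read 541.7 or less on all 5 arrays, the fibroblast one included, and so that probe shows nothing about type I collagen. All 4 were picked for mention with their values known. Of 24 collagen genes 3 (12.5%) were called higher and 2 (8.33%) lower, against 5.74% and 5.69% of all genes (median -0.24). Col1a2, the other chain of type I collagen, and Col3a1 were measured and not called. Col7a1 and Col8a1 (3.63 and 3.10) were the higher ones besides Col12a1, and both lost their calls without Leydig replicate 2. Col8a1 read 1825 and 3299 against 282 and 261, with 37894 on the MEF array, far above both iLC arrays. Col15a1, a collagen of basement membranes, was lower at 2999 and 3079 against 33816 and 24454, with 2041 on the MEF array. Col6a3 was lower by 2.79 on the log2 scale and lost its call without either iLC array or Leydig replicate 1 and with the arrays' low ends aligned. Counts of higher collagens without 1 array ran from 1 (without Leydig replicate 2) to 5 (without Leydig replicate 1).

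Enzymes that remodel the matrix were mixed. Of 30 proteases and inhibitors, 9 were higher and 3 lower (median 0.80). Mmp3, the stromal metalloproteinase stromelysin, read 10666 and 10736 against 219 and 225, with 20161 on the MEF array. Plat, the tissue plasminogen activator, read 82012 and 98077 against 5608 and 3148, with 42101 there. On the lower side stood 2 serpins. Serpina5, an inhibitor of protein C made in the male reproductive tract, read 122 and 325 against 65703 and 72054, and Serping1, the complement C1 inhibitor, read 2441 and 2478 against 151930 and 66151. The higher count of 9 became 4, 3, 8 and 4 without iLC replicate 1, iLC replicate 2, Leydig replicate 1 and Leydig replicate 2.

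Among 41 integrin, laminin and adhesion genes, 10 were higher and 3 lower (median 0.84). Itga11, a collagen receptor subunit of fibroblasts, read 17935 and 22055 against 3104 and 2591, and Sdc1, a cell surface proteoglycan, 21930 and 16148 against 1159 and 2060. Itga9, another integrin subunit, was lower at 758 and 810 against 17225 and 18800, with 781 on the MEF array. Lama2, a laminin chain, differed by -3.29 and did not stay called without iLC replicate 2, Leydig replicate 1 or Leydig replicate 2. The count of 10 became 6, 5, 6 and 2 without iLC replicate 1, iLC replicate 2, Leydig replicate 1 and Leydig replicate 2.

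Of 27 smooth muscle and contractile genes, 14 (51.9%) were called higher and 1 (3.70%) lower, against 5.74% and 5.69% of all genes. Separate in those directions were 22 and 2, against 28.9% and 29.0% of all genes, and the median was 1.41. All 14 had a MEF level on the iLC side. Tagln, an actin-binding protein of smooth muscle, read 16654 and 14561 in iLC against 247 and 159 in Leydig cells, with 73587 on the MEF array. Acta2, smooth muscle actin, read 493313 and 439352 against 29989 and 46397, with 466436 there. Its other probe read 39708 and 24775 against 288 and 1830, with 133228 on the MEF array, above both iLC arrays. Acta1 and Myh11, a skeletal actin and the smooth muscle myosin chain, differed by 3.82 and 3.32. Their iLC levels, 2141 and 2427 for Acta1 and 8283 and 5121 for Myh11, lay below the MEF levels of 42869 and 18682. Mylk, the myosin light chain kinase, was the lower one (-1.56) and lost its call without any 1 array. The higher count was 6 without iLC replicate 2 and 7 without each of the other arrays.

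Of 15 embryonic fibroblast markers, 8 were higher and 2 lower, and the summed intensity was 918817 and 817443 on the iLC arrays, 356653 and 171510 on the Leydig arrays and 1584480 on the MEF array. Thy1, a surface protein of fibroblasts, read 86032 and 122845 against 1211 and 5361, with 296874 on the MEF array. Pdgfra, a growth factor receptor that stromal progenitors of the testis also carry, was lower at 28814 and 20535 against 180686 and 92654, and lost its call without any 1 array. With 1 array left out the list had 7 to 9 markers called higher.

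Of 38 Hox genes, 21 (55.3%) were called higher in iLC and 3 (7.89%) lower, against 5.74% and 5.69% of all genes. Separate in those directions were 27 and 5, against 28.9% and 29.0% of all genes, and the median was 2.00. All 21 had a MEF level on the iLC side. Hoxa11 read 1985 and 1235 against 87 and 90, with 2536 on the MEF array. Hoxa9 read 1493 and 1734 against 139 and 98, with 943 on the MEF array, and Hoxb8 694 and 762 against 28 and 11, with 1103. On both Leydig arrays 9 Hox genes lay under the array's 20th percentile, Hoxa9, Hoxa11 and Hoxb8 among them, so the size of these differences depends on the added 16 and on the low end of each array. The 3 lower genes all belong to the Hoxd cluster: Hoxd9 (4798 and 7134 against 47519 and 32128), Hoxd4 and Hoxd8. Each of them lost its call without Leydig replicate 2, Hoxd9 also without iLC replicate 1 or Leydig replicate 1, and Hoxd8 also without each other array. The higher count was 16, 17, 11 and 7 without iLC replicate 1, iLC replicate 2, Leydig replicate 1 and Leydig replicate 2, and 13 to 22 over the other settings.

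Of 43 mesenchymal and limb regulators, 14 were higher and 4 lower (median 0.92). Tbx15, a T-box factor of mesenchyme, read 31440 and 13760 against 97 and 148, with 17325 on the MEF array. En1, Hand2 and Scx, which act in limb, heart and tendon development, differed by 4.67, 4.59 and 4.53. On the lower side Osr2, a zinc finger factor of mesenchyme, read 5111 and 5760 against 149241 and 130591, with 4177 on the MEF array. Osr1, Tbx3 and Twist1 were also lower and each lost its call without 3 or more of the arrays. The count of 14 was 11 to 13 without 1 array, lowest without Leydig replicate 2.

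**Figure D4:**
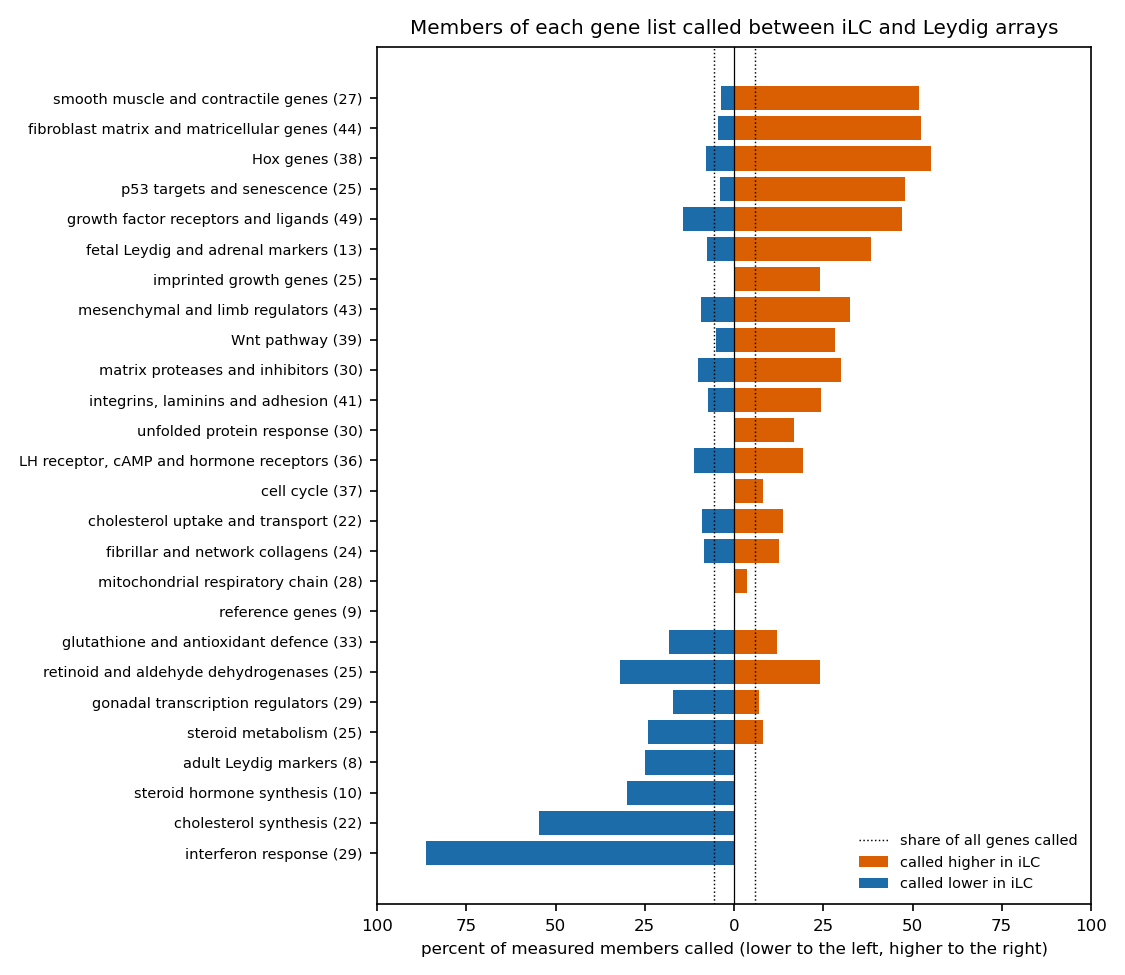
Percent of the measured members of each gene list (number in brackets) called higher (right, orange) or lower (left, blue) in iLC than in Leydig cells; dotted lines mark the share of all genes called, 5.74% and 5.69%. Hox, matrix and contractile lists extend to the right, and the interferon list (25 of 29 lower) and the cholesterol synthesis list (12 of 22 lower) to the left.

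Of 49 growth factor ligands, receptors and binding proteins, 23 were higher in iLC and 7 lower (median 1.10), and 19 of the 23 had a MEF level on the iLC side. Igfbp3 read 42002 and 88186 against 1670 and 1039, with 11740 on the MEF array. Ereg, an epidermal growth factor family ligand, and Fgf10, a mesenchymal fibroblast growth factor, differed by 5.47 and 4.64. Ereg lost its call without iLC replicate 1 and Fgf10 without Leydig replicate 2. Kit, the stem cell factor receptor that Leydig cells and germ cells carry, was lower at 97 and 283 against 47570 and 18913. Igfbp6 was lower at 12661 and 6131 against 170932 and 114794. Igf1 read 1292 and 697 against 22100 and 7347 and lost its call without iLC replicate 2 or Leydig replicate 1. The 23 became 14 without iLC replicate 1, iLC replicate 2 or Leydig replicate 1 and 8 without Leydig replicate 2, and the 7 lower ones became 2 to 4.

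Of 39 Wnt pathway genes, 11 were higher and 2 lower (median 0.88). The most different were genes of secreted proteins of the Dickkopf and Sfrp families. Dkk3 read 34780 and 25938 against 429 and 247, with 26207 on the MEF array. Frzb read 12160 and 14122 against 478 and 304, with 3226, and Sfrp5 5265 and 6556 against 338 and 189, with 201, close to the Leydig level. Sfrp1 differed by 4.12 and lost its call without iLC replicate 1 or Leydig replicate 2. Wnt6 and Rspo1 were lower by 2.14 and 1.99 on the log2 scale, and each lost its call without 3 or more of the arrays. The higher count was 4 to 7 without 1 array, lowest without Leydig replicate 2.

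Of 25 imprinted growth genes, 6 were higher and none lower (median 0.78). Nnat (neuronatin) read 20707 and 18700 against 462 and 518, with 5897 on the MEF array. H19, Cdkn1c and Phlda2 differed by 3.23, 2.09 and 1.98 and lost their calls without 3 or more of the arrays. H19 read 23246 and 9273 against 1048 and 2287, with 251981 on the MEF array, far above both iLC arrays. The count was 1 to 3 without 1 array, and 1 without iLC replicate 1 or Leydig replicate 2.

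Of 25 p53 target and senescence genes, 12 were higher and 1 lower (median 1.30), and 7 of the 12 had a MEF level on the iLC side. Apart from Il6, the largest differences were those of Perp, a p53-induced membrane protein (11187 and 24871 against 266 and 407, with 1351 on the MEF array), Pmaip1, a pro-apoptotic protein (10943 and 9809 against 165 and 285, with 7843), and Cdkn2b, a cell cycle inhibitor (46882 and 43047 against 2437 and 1582, with 25188). The lower gene, Cdkn2c, differed by -2.28 and lost its call without iLC replicate 1 or Leydig replicate 2. Of 37 cell cycle genes, 3 (8.11%) were higher, near the 5.74% of all genes. The cyclin gene Ccnd1 read 76446 and 119167 against 4801 and 5028, with 68749 on the MEF array. The others, Ccne1 and Ccnd2, lost their calls without 3 of the arrays. None was lower. The proliferation marker Mki67, named after its values were seen, read 40932 and 23934 against 32574 and 36300 and did not pass. Top2a, a topoisomerase of dividing cells named likewise, read 4061 and 3202 against 3630 and 1427, with 44045 on the MEF array. Without 1 array 5 to 7 p53 genes and 1 or 2 cell cycle genes were called higher.

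On the lower side, the widest gaps among the ranked genes belonged to genes that the fibroblast array read low as well. The 10th percentile rule left out Tcf21, Ldhc and Mx1, whose gaps were 7.58, 7.12 and 6.025. For all 15 the MEF level lay on the iLC side. Serpina5 is given above. Mmd2, a membrane protein of the progestin and adipoQ receptor family, read 988 and 635 in iLC against 156715 and 116950 in Leydig cells, with 316 on the MEF array (difference -7.39 ± 0.37, SE, adjusted p = 0.000908). Acsbg1, an acyl-CoA synthetase of steroidogenic tissues, read 3150 and 2515 against 266389 and 257123, with 1521 there. Agt, angiotensinogen, read 579 and 180 against 37101 and 100150. Leydig values of these genes were high on both arrays.

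Slc38a5, an amino acid transporter, Itih5, a hyaluronan-binding protein, Art3, an ADP-ribosyltransferase family gene, and Mt3, a metallothionein, differed by -6.34, -6.81, -6.23 and -5.80. Cfb, complement factor B, read 567 and 416 against 75182 and 24187, and Cp, the copper carrier ceruloplasmin, 778 and 1026 against 40380 and 42290. Lifr, the receptor of leukemia inhibitory factor, read 1966 and 1318 against 101798 and 75551, and its other probe differed by -5.31. Gbp3 and Ifi47, both guanosine triphosphatases induced by interferon, completed the 15 together with Hbb-b1 and Kit. Kit stands on the germ cell marker list too, and the part of germ cells in its difference was not tested.

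Of 10 measured genes of steroid hormone synthesis, 3 (30%) were called lower and none higher, against 5.69% and 5.74% of all genes. Separate in those directions were 5 and 2, against 29.0% and 28.9% of all genes, and the median was -0.41. Cyp17a1, the 17-alpha-hydroxylase and lyase of androgen synthesis, read 1382 and 2351 in iLC, 40614 and 197728 in Leydig cells and 2344 on the MEF array (difference -5.62 ± 0.75, SE, adjusted p = 0.00695). The iLC readings stood at the fibroblast level, 1 below the MEF reading and the other next to it. Hsd3b1, which turns pregnenolone into progesterone, read 27160 and 34513 against 218338 and 95740, with 830 on the MEF array. Its iLC levels lay between the MEF and Leydig levels, and the call was lost without either iLC array, without Leydig replicate 1, with aligned low ends and with an added 1. H6pd, which supplies reducing power in the endoplasmic reticulum, read 16093 and 12090 against 77856 and 82661, with 17740 on the MEF array, and lost its call without Leydig replicate 2. For all 3 the MEF level was on the iLC side of the midpoint.

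The other 7 members of the steroid list did not pass. Star read 56878 and 73892 in iLC against 1368 and 19703 in Leydig cells, with 695 on the MEF array. The groups were separate, and the difference of 3.63 ± 1.13 missed the threshold (adjusted p = 0.0991), though Star was called under 4 of the 16 alternatives. Its other probe gave 1.98. Fdx1, the electron donor of mitochondrial steroid enzymes, read 147489 and 139550 against 136753 and 212818, with 12392 on the MEF array. Cyb5a, a cofactor of the androgen-forming lyase step, read 67710 and 107155 against 70323 and 71059. Fdx1 and Cyb5a overlapped between the groups. Tspo (41712 and 40659 against 86894 and 42754) and Hsd17b7 (20733 and 25491 against 48807 and 41451) were separate and lower in iLC. Hsd17b3, the enzyme that forms testosterone, read 3738 and 799 against 1124 and 3680, with 2165 on the MEF array between the Leydig readings, so this probe did not mark Leydig cells. Cyp11a1 read 603 and 907 against 510 and 451, with 562 on the MEF array, so it did not mark them either and shows nothing about the first step of the pathway. Fdxr, Por, Srd5a1 and Cyp19a1 had no named probe. The lower count was 2 without any 1 array, and Leydig replicate 2 left out gave 1 higher member.

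Of 8 measured adult Leydig markers, 2 were lower and none higher (median -1.30). Aldh1a1, a retinaldehyde dehydrogenase of adult Leydig cells, read 18088 and 19248 against 510912 and 454706, with 6603 on the MEF array. Akr1c14, the 3-alpha-hydroxysteroid dehydrogenase, read 284 and 312 against 28328 and 4675, with 351 on the MEF array, and lost its call without either iLC array. Hsd11b1 (698 and 717 against 1559 and 1843) and Vcam1 (112682 and 179123 against 312235 and 422875) were separate without passing, and were called under 7 of 15 and 4 of 16 alternatives. Lcn2 read 20413 and 20604 against 41218 and 233838 and did not pass, being called under 3 alternatives. Ptgds, a prostaglandin D synthase, read 12887 and 58864 against 2214 and 235608, and Sult1e1, the estrogen sulfotransferase, 1543 and 14118 against 888 and 30056. These 2 genes overlapped because both pairs were far apart. Ces1d, a carboxylesterase, differed by 0.61 without passing. The lower count was 1 without either iLC array, 3 without Leydig replicate 1 and 2 without Leydig replicate 2.

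Steroid metabolism genes were called lower for 6 of 25 (24%) and higher for 2 (8%), against 5.69% and 5.74% of all genes (median -0.03). Besides Akr1c14, Sult1a1, a phenol and steroid sulfotransferase, read 497 and 572 against 33646 and 9198, with 416 on the MEF array. Hsd3b7 and Akr1c13 (-2.30 and -1.66) lost their calls without 3 or more of the arrays. Akr1c18, the 20-alpha-hydroxysteroid dehydrogenase that inactivates progesterone, was higher at 13319 and 15038 against 508 and 1127, with 5033 on the MEF array. Hsd11b2 was higher by 2.07 and lost its call without 3 of the arrays. With 1 array left out, 1 to 3 members were lower, 1 without either iLC array, 2 without Leydig replicate 1 and 3 without Leydig replicate 2.

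Of 29 gonadal transcription regulators, 5 (17.2%) were lower and 2 (6.90%) higher, against 5.69% and 5.74% of all genes. All 5 lower ones had a MEF level on the iLC side, against 77.8% of all lower genes. Tcf21, a helix-loop-helix factor of gonadal stroma, had the largest difference of the list, reading 62 and 168 in iLC against 49873 and 35286 in Leydig cells, with 506 on the MEF array. Its iLC readings lay under those arrays' 20th percentiles, so the size of its difference depends on the added 16. Nr5a1 and Gata4, both among the delivered factors, differed by -5.37 and -4.06, and the sources used here do not say whether these probes would read the delivered copies. Map3k1, a signalling kinase, was lower by 2.69 on the log2 scale and lost its call without iLC replicate 2 or Leydig replicate 2. Emx2, a homeobox gene needed to form the gonad, was higher at 9386 and 9238 against 428 and 260, with 8688 on the MEF array. Gata6, a relative of Gata4, was higher too (7319 and 9918 against 1789 and 2039, with 4730 on the MEF array) and did not keep its call without iLC replicate 2 or either of the Leydig arrays. The lower count was 3 without iLC replicate 2 or Leydig replicate 2 and 4 without the other arrays.

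Nr5a1 binds a half-site whose core is AAGGTCA. Of 32851 promoters of RefSeq genes (build GRCm38.p6, 250 bases before to 50 after the gene start), 1550 (4.72%) held it on either strand. By gene, 1454 of 27025 (5.38%) held it in any promoter, the share to set beside the gene counts that follow. Among the 6 steroid synthesis genes with a promoter in the table, only H6pd held it. Among the 15 ranked genes of widest gap in each direction, 0 of 8 higher and 1 of 13 lower genes with a promoter held it. The lower one was Lifr. The 80 bases around each match are shown with the match in capitals (read on the opposite strand as TGACCTT), H6pd at chr4:150003293-150003372 on the minus strand and Lifr at chr15:7129322-7129401 on the plus strand.
H6pd: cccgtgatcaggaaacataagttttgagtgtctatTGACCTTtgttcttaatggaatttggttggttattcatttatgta
Lifr: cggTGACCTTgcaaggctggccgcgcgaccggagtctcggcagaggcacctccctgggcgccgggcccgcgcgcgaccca
A match is a description of letters and not a binding site.

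Of 36 receptor and cyclic AMP genes, 7 (19.4%) were higher and 4 (11.1%) lower, against 5.74% and 5.69% of all genes (median 0.13). The phosphodiesterase Pde4d, which breaks down cyclic AMP, read 17878 and 13156 in iLC against 1420 and 1169 in Leydig cells, with 3565 on the MEF array, and its 2 other probes differed by 1.14 and 3.98. Pde4b read 43409 and 20880 against 345 and 672, but its other probe differed by -0.19, so the gene is uncertain. Pde10a and Prkar1b, a regulatory subunit of protein kinase A, differed by 2.64 and 3.21 and lost their calls without Leydig replicate 2. Esr1, the estrogen receptor alpha of Leydig cells, was lower at 615 and 767 against 10872 and 16255, with 411 on the MEF array. Rgs2, Adcy9 and Arrb1 were lower by 3.67, 2.01 and 1.75 on the log2 scale and lost their calls without 3 or more of the arrays. The higher count was 3 or 4 and the lower count 1 or 2 without any 1 array. Lhcgr, the receptor of luteinising hormone, was not analysed here.

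Genes of the fetal Leydig cell and the adrenal were called higher for 5 of 13 and lower for 1 (median 0.75), and 4 of the 5 had a MEF level on the Leydig side. Crhr1, the receptor of corticotropin-releasing hormone, read 2618 and 2973 in iLC against 187 and 189 in Leydig cells, with 242 on the MEF array. Agtr1a, an angiotensin receptor, read 6415 and 5003 against 648 and 863, with 1208. Cyp11b1, the adrenal 11-beta-hydroxylase, read 13429 and 12026 against 322 and 1730, with 275, and lost its call without either iLC array and with aligned low ends. Mrap, the accessory protein of the corticotropin receptor, was lower at 12133 and 10236 against 94209 and 160866, with 383 on the MEF array. Its iLC level lay between the other 2. Without 1 array 3 or 4 members were higher, 3 without either iLC array and 4 without either Leydig array.

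Of 22 measured genes of cholesterol synthesis, 12 (54.5%) were called lower and none higher, against 5.69% and 5.74% of all genes. Separate were 19 lower and 2 higher, against 29.0% and 28.9% of all genes, and the median was -1.97. Cyp51, the lanosterol demethylase, read 3492 and 2002 in iLC against 69773 and 51588 in Leydig cells, with 14346 on the MEF array. Idi1, which makes the isoprene unit, read 5452 and 4571 against 92830 and 54784, with 23106. Insig1, the sterol-sensing brake of the pathway, read 8699 and 7136 against 166211 and 60609, with 45184, and lost its call without iLC replicate 2. Nsdhl, a sterol dehydrogenase, read 227 and 233 against 4284 and 1999, with 629. In all 4 the MEF array read above both iLC arrays. Of the 12 lower genes, 7 had a MEF level on the iLC side and 5 on the Leydig side. Without iLC replicate 1, iLC replicate 2, Leydig replicate 1 and Leydig replicate 2 the lower count was 7, 9, 6 and 9, and over the other settings it was 11 to 16.

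Of 22 measured genes of cholesterol uptake and transport, 3 (13.6%) were higher and 2 (9.09%) lower, against 5.74% and 5.69% of all genes (median 0.10). Stard4, a cytosolic sterol carrier, was lower at 530 and 345 against 5332 and 5947, with 2883 on the MEF array. Plin1, a lipid droplet coat protein, read 1999 and 2021 against 8062 and 45559 and lost its call without 3 of the arrays and under 4 other settings. Lipe, the hormone-sensitive lipase that frees stored cholesterol, was higher at 3587 and 4447 against 760 and 493, and lost its call without Leydig replicate 2. Abcg1, a sterol exporter, was higher at 7427 and 17725 against 1050 and 1016, and lost its call without either Leydig array. Vldlr, a lipoprotein receptor, differed by 2.64 and lost its call without either iLC array or Leydig replicate 2 and with aligned low ends. Scarb1, the receptor for high-density lipoprotein, read 114056 and 197592 against 61600 and 37023, with 25910 on the MEF array, and did not pass (adjusted p = 0.0609), though it was called under 6 of the 16 alternatives. Abca1 read 99372 and 137554 against 206191 and 152879, with 6107 on the MEF array, and Plin2 115276 and 95014 against 42261 and 55045. Neither passed, and Plin2 was called under 1 alternative, the filter on dim genes. The remaining members, Stard5, Plin4, Apoe, Apoa1, Cd36, Nceh1, Osbpl3, Stard3, Lrp1, Npc1, Npc2, Cidea, Cidec and Lipa, lay between -1.94 and 0.99 and did not pass, though Stard5 was called under 3 alternatives, Plin4 under 2 and Apoe under 1. With 1 array left out 0 to 2 members were higher (0 without Leydig replicate 2) and 1 to 3 lower (3 without Leydig replicate 1).

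**Figure D5:**
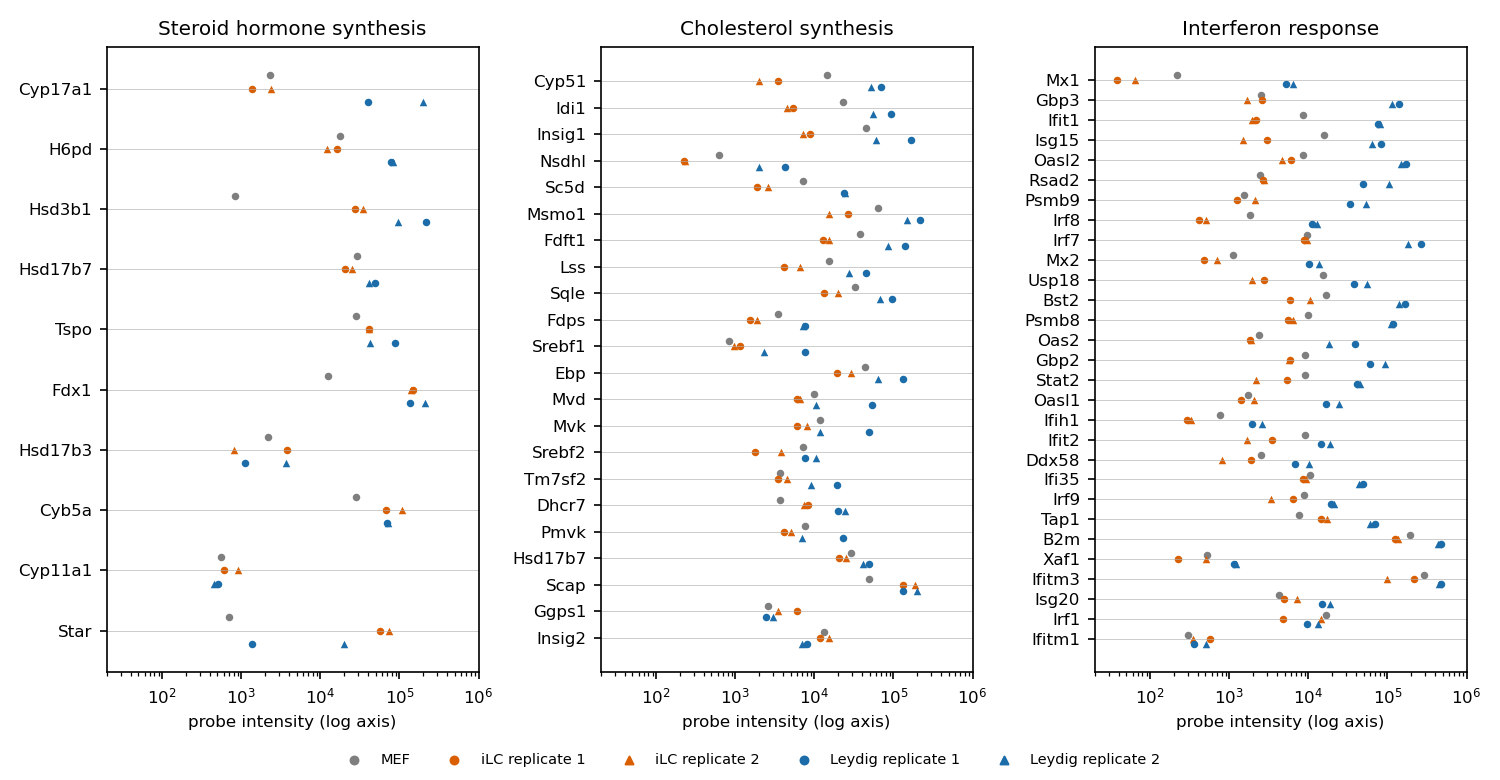
Probe intensity (log axis) on each of the 5 arrays for every measured gene of steroid hormone synthesis, cholesterol synthesis and interferon response, ordered by the iLC minus Leydig difference. Cyp17a1 reads 1382 and 2351 in iLC against 40614 and 197728 in Leydig cells, Star lies higher in iLC, and the groups are separate and lower for 19 of 22 cholesterol and 27 of 29 interferon genes.

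Of 25 retinoid and aldehyde enzyme genes, 8 were lower and 6 higher (median -0.45), and the 8 lower ones were all aldehyde dehydrogenases. Aldh1a2, which makes retinoic acid, read 999 and 840 against 9128 and 26386, and Aldh3a2, a fatty aldehyde dehydrogenase, 495 and 500 against 5039 and 12854. Aldh3a1 differed by -3.55 and lost its call without 3 of the arrays and with aligned low ends. For all 8 the MEF level was on the iLC side. Higher genes were Adh7, an alcohol dehydrogenase (161970 and 59148 against 1525 and 2678, with 1361 on the MEF array), Crabp2, and Rdh10 and Stra6 (2.56 and 2.44), which lost their calls without 3 of the arrays. The lower count was 5, 5, 7 and 3 and the higher count 3, 4, 2 and 2 without iLC replicate 1, iLC replicate 2, Leydig replicate 1 and Leydig replicate 2.

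Of 33 glutathione and antioxidant genes, 6 (18.2%) were lower and 4 (12.1%) higher, against 5.69% and 5.74% of all genes (median 0.13). Gstt1 read 906 and 912 against 19915 and 12531, with 1478 on the MEF array, and Gstm2 10642 and 9987 against 105955 and 104658, with 4911. Gsta3, a transferase that also isomerises steroids, read 19614 and 12023 against 151867 and 209494, with 926 on the MEF array, and lost its call without Leydig replicate 2. Gstm5 (-1.89), Gsto1 (2.61), Nqo1 (2.40), Mgst2 (1.88) and Prdx1 (1.55) lost theirs without 3 or more of the arrays. Without 1 array 2 to 4 members were lower, 2 without Leydig replicate 2, and at most 1 was higher.

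Of 28 respiratory chain genes 1 was higher, Atp5o (2999 and 2716 against 882 and 663), and it lost its call without any 1 array. None was lower, and the median was -0.07. Of 30 genes of the unfolded protein response, 5 were higher and none lower (median -0.05), and 4 of the 5 had a MEF level on the Leydig side. Trib3, a stress-induced pseudokinase, read 31337 and 26384 against 2630 and 2726, with 5288 on the MEF array, and Chac1, a glutathione-degrading enzyme, 18242 and 24159 against 2286 and 2650, with 6715. Atf3 and Ppp1r15a (2.92 and 1.70) lost their calls without either of the Leydig arrays, and Ppp1r15a also without either iLC array. The chaperone gene Hspa5, named after its values were seen, differed by -0.47 and did not pass. The count of 5 was 2 without either Leydig array and 3 without either iLC array. None of 9 reference genes was called (median 0.08), and the largest differences were those of Sdha (-0.74), Polr2a (0.61) and Pgk1 (0.59).

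Of 29 measured interferon response genes, 25 (86.2%) were called lower in iLC and none higher, against 5.69% and 5.74% of all genes. Separate and lower were 27, against 29.0% of all genes, and the median was -3.69. Mx1, an antiviral guanosine triphosphatase, read 38 and 64 against 5193 and 6394, with 219 on the MEF array. Its iLC readings lay under those arrays' 20th percentiles, so the size of its difference depends on the added 16. Gbp3 read 2622 and 1670 against 138874 and 115595, with 2554 on the MEF array. Ifit1, which binds foreign RNA, read 2187 and 1961 against 75614 and 81039, with 8565 there. Isg15, a ubiquitin-like modifier, read 2986 and 1483 against 83513 and 64362, with 15566. The Leydig arrays were high and close together for these genes, and the 2 that overlapped in the list were Irf1 and Ifitm1. Of the 25, 22 had a MEF level on the iLC side. Without iLC replicate 1, iLC replicate 2, Leydig replicate 1 and Leydig replicate 2 the count was 23, 20, 18 and 17. Macrophages respond strongly to interferon, and the summed level of their 27 markers was 92501 and 181076 in iLC against 222186 and 183030, with 4 members lower and 6 higher. The part of such cells in the interferon result was not tested.

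Interferon induces its target genes through a response element that can be approximated as 2 copies of TTTC with 2 bases between them. The motif was chosen after the counts were known. It stood on either strand in 1131 of 32851 promoters (3.44%), or in 1079 of 27025 genes with a promoter (3.99%), and in 11 of the 25 list genes with a promoter (44%), 10 of them among the 21 called lower. Of these, 5 are shown because their differences are given here or are among the list's larger ones, as 80 bases of the gene's strand with each match in capitals, overlapping ones run together. They are Ifit1 at chr19:34640750-34640829 (plus strand), Isg15 at chr4:156200852-156200931 (minus), Rsad2 at chr12:26456528-26456607 (minus), Gbp3 at chr3:142559964-142560043 (plus) and Stat2 at chr10:128270248-128270327 (plus).
Ifit1: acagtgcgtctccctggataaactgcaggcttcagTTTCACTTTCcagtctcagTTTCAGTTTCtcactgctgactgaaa
Isg15: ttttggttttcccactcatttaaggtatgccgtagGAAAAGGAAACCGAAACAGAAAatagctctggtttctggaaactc
Rsad2: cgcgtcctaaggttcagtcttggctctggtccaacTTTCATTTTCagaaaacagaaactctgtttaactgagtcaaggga
Gbp3: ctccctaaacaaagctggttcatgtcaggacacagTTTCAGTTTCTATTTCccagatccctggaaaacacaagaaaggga
Stat2: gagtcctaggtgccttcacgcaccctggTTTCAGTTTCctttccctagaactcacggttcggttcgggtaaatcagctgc
In Isg15 the matches lie on the opposite strand, as copies of GAAA, and counting matches that overlap, Isg15 holds 3, Ifit1 and Gbp3 hold 2 each, and Rsad2 and Stat2 hold 1 each. Rsad2, an antiviral enzyme of the endoplasmic reticulum, read 2681 and 2780 against 49698 and 104797, and Stat2, which carries the interferon signal to the nucleus, 5366 and 2187 against 41319 and 44465; both were named for their promoters after their values were seen. Stat2 lost its call without Leydig replicate 1 or Leydig replicate 2. The share in the list describes these 25 promoters, and no match says only that the letters are not in the window.

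The same search for TCACNCCAC, a sequence bound by the sterol regulators, found it in 408 of 32851 promoters (1.24%), or 388 of 27025 genes (1.44%). It was in none of the 19 cholesterol synthesis genes with a promoter. This too was chosen after the counts were known, and no match here says nothing about the regulators.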

How the data were processed

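Amplified RNA carrying Cy5 was read on 1 array per sample, per the labels' protocols. The series' deposited values table holds linear intensity per probe. How the authors corrected the background and normalized the arrays is not given in the material used here. No detection calls were used, so no bound was set for dim probes. Probes were named through the platform annotation (21876 of 26423 had 1 symbol, 0 several, 4547 none; 21825 had an Entrez identifier in the reference table, which changed 0 symbols). For 2424 genes with several probes the brightest on average was used; of 258 called ones, 215 had every other probe in the same direction. Columns of no sample numbered 0.

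Values below 0 (0, 435, 23, 0 and 46 on the MEF, iLC and Leydig arrays) were set to 0, 16 was added and log2 taken. limma 3.58.1 in R 4.3.3 (lmFit, eBayes) was fitted over 5 arrays with 1 mean a group, two-sided, with Benjamini-Hochberg adjustment over 19084 genes; 2 residual and 4.19 prior degrees of freedom remained, and 5122 genes had an unadjusted p under 0.05. Standard deviations (root mean square, log2) were 0.459 for iLC and 0.549 for Leydig pairs. The fit was tested on simulated data. Members, lists and tests were chosen with earlier results of these data known. Named genes were the 15 called genes of widest gap in each direction (at or above the 10th percentile on the 4 arrays, which left out 96 higher and 131 lower called genes; predicted genes, clones, olfactory genes and pseudogenes left out), all members of the steroid synthesis, adult Leydig and cholesterol uptake lists, and up to 4 called members in each direction of each other list (up to 3 of a list with none). List genes with no named probe were not analysed here. Promoter sequences are RefSeq's (GRCm38.p6). Tables were made with Python 3.11.15 and pandas 2.3.3. Alternatives covered scaling, the added value, dim genes, probe choice, the fit and leaving out each array.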

Additional observations from a re-analysis of the deposited data

How the results depend on the processing

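The number of genes called higher in iLC ran from 336 to 562 with 1 array left out, and the number called lower from 368 to 761, against 1095 and 1086 with all arrays. Over the scaling, added value, probe, dim gene and fit alternatives they ran from 862 to 1346 and from 782 to 1424. Separate genes numbered 6860 to 8037 higher and 6993 to 8368 lower with 1 array left out, since a lone array overlaps less, and 3396 and 3231 with the filter on dim genes, which kept 10485 genes. Fitting a replicate block gave 1485 higher and 1958 lower. Deviations of same-numbered arrays from their group means correlated at 0.055 over genes. With 2 arrays a group this is 1 comparison, so it cannot tell whether the replicate numbers pair the samples. Of 216 named genes 180 were called. Of these, 94 kept the call under all 16 alternatives and 3 Hox genes under the 15 that include them, 58 lost it only with an array left out, 25 also elsewhere, and 0 changed sign. All 30 ranked genes of widest gap kept theirs. Of the 36 named genes not called, 10 were called under at least 1 alternative. Unequal low ends of the arrays (1st percentile -10.1 to 36.9 on the 4 arrays) limit every difference of a dim gene.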
